A study of Mus musculus with 18 samples.

Results

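The 10 genes described here encode Wnt ligands: Wnt2, Wnt2b, Wnt4, Wnt5a, Wnt5b, Wnt6, Wnt7b, Wnt9a, Wnt10a and Wnt11. They were taken by symbol from the probe annotation of the series, in which 19057 genes are named by a probe. The 10 genes have 17 probes among the 45281 probes of the array, and all 17 lay above the background level on at least 1 array, against 35585 of all probes (78.6%). Cells were sorted by flow cytometry from the mammary glands of female mice on a pure FVB/N background, from normal tissue with no treatment named, and the age of the mice on the arrays is not given in the sources used here. Blood and endothelial cells were depleted with antibodies to CD31, CD45 and TER119, and the remaining cells were split into a MaSC-enriched subset (MS, high CD29 and low CD24, CD61 positive), luminal progenitors (LP, low CD29, CD24 and CD61 positive), mature luminal cells (ML, low CD29, CD24 positive and CD61 negative) and stroma (low CD29, CD24 negative). The MS gate is enriched for stem cells and also holds the other basal cells of the duct. RNA came from 5 pools of mice, which the labels give as the biological replicates, and the sources do not settle how many mice were in a pool. Each pool gave 1 MS, 1 LP and 1 ML array, and pools 1, 2 and 3 also gave 1 stromal array, for 18 Illumina MouseWG-6 arrays in all.

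Wnt proteins are secreted, lipid-modified signals that act over short distances. The acyltransferase Porcn attaches the lipid and the carrier Wls takes the protein to the cell surface. On a target cell, a Wnt bound to a Frizzled receptor and to Lrp5 or Lrp6 stabilises beta-catenin, which switches on genes together with TCF/LEF factors, whereas other Wnts act through Ror2 or Ryk without beta-catenin and steer cell shape and polarity. In the mammary gland, Wnt1 was found as a gene activated by mouse mammary tumor virus, Wnt4 acts downstream of progesterone in side branching, and Wnt5a restrains ductal growth.

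Levels are log2 normalized intensities, so a difference of 1 is a doubling. The background level was set on each array from receptor genes of the nose and lay between 5.10 and 5.44. A difference was called when its adjusted p-value was under 0.05 and its fold change over 1.5, in a limma model of all 18 arrays with two-sided tests (Benjamini-Hochberg over all probes and the 6 pairwise contrasts). Fold changes come from this model, which gives arrays of lower quality less weight and can therefore differ from the plain means. A gene is represented by its brightest probe. Because each array holds RNA from many cells, fewer cells of a type and less RNA per cell cannot be told apart.

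The sort labels were checked against marker genes. All 10 basal and myoepithelial markers were higher in MS than in both luminal subsets, 5 of 7 luminal progenitor markers were higher in LP than in MS and ML, 4 of the 5 measured mature luminal markers were higher in ML than in MS and LP, and 9 of 10 fibroblast markers were higher in stroma than in all 3 epithelial subsets. Within the epithelium, 4 of the 10 fibroblast markers were higher in MS than in both luminal subsets and 9 of the 10 were lower in ML than in MS and LP. Of 6 pericyte markers, 5 were higher in MS than in both luminal subsets, with means of 7.44 to 9.52 on the MS arrays and 7.71 to 8.25 in stroma. The MS and LP arrays of pools 3 and 4 stood apart. Endothelial markers averaged 11.20 and 10.71 on MS replicates 3 and 4, against 7.54 to 8.55 on the other MS arrays, and fibroblast markers averaged 11.41 and 11.35 against 9.72 to 10.28. Endothelial markers averaged 9.48 and 10.08 on LP replicates 3 and 4, against 6.37 to 7.35 on the other LP arrays, and basal markers averaged 9.59 and 9.15 against 6.95 to 8.10. ML replicate 4 had the lowest mature luminal mean of its group (9.70, others 10.76 to 10.92) and the highest luminal progenitor mean (12.35, others 11.03 to 11.80). Pools 4 and 5 were hybridized in a second batch without stroma.

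Of the 10 ligands, 8 were called in at least 3 of the 6 contrasts, which held for 37.1% of all 16319 genes tested. The same 8 were those called in at least 1 contrast (52.6% of all genes). The 10 were chosen with earlier results of these data known. Their counts and sizes, here and below, are therefore set beside those of all genes as description and not as a test. Of 7 other Wnt genes tested, 3 were called in at least 1 contrast. MS had more Wnt6, Wnt10a and Wnt11 than both luminal subsets (3 of 10, against 9.66% of all genes) and less Wnt4, Wnt5a and Wnt7b (3 of 10, against 8.17%). LP had more Wnt5b than MS and ML (1 of 10, against 2.10%). ML had more Wnt4, Wnt5a and Wnt7b than MS and LP (3 of 10, against 3.22%) and less Wnt2 (1 of 10, against 3.74%). Stroma had more Wnt2 and Wnt11 than all 3 epithelial subsets (2 of 10, against 9.93%) and less Wnt5b and Wnt7b (2 of 10, against 9.69%). The Wnt11 call of stroma over MS, on which its place here rests, was lost with the pools paired as a fixed block. Wnt5a and Wnt7b are placed in ML by their calls in LP against ML. Both calls were lost with the batch as a term and in batch 1 alone. The lower Wnt5a in MS rests in part on its call against LP, which was also lost in batch 1 alone. Wnt2b and Wnt9a were called in none of the contrasts.

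**Figure D1:**
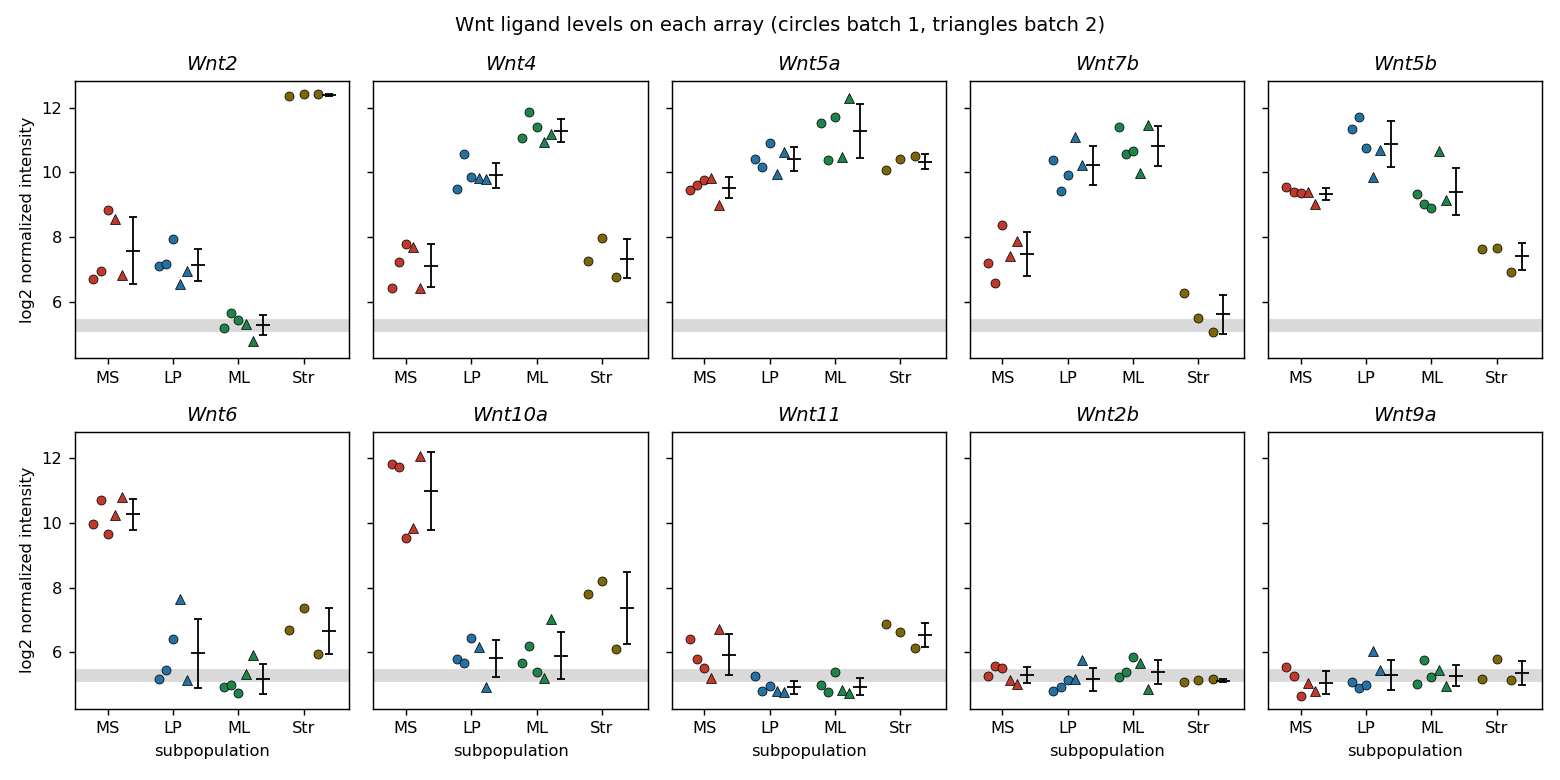
Level of each of the 10 Wnt ligands on the 18 arrays, as log2 normalized intensity of the brightest probe (vertical axis), by subpopulation (horizontal axis, Str for stroma). Points are arrays in order of mouse pool, circles from batch 1 and triangles from batch 2, bars are the mean ± SD (n = 5 for MS, LP and ML, n = 3 for stroma) and the grey band is the range of background levels, 5.10 to 5.44. Wnt2 stands at 12.37 to 12.42 in stroma, Wnt6 and Wnt10a reach 9.55 or more on the MS arrays and on no other, and Wnt2b and Wnt9a stay near the band in every group.

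Between the epithelial subsets, 7 of 10 ligands were called in MS against LP (22.2% of all genes), 7 in MS against ML (27.5%) and 5 in LP against ML (11.1%). In MS against LP, 3 were higher in MS (11.3% of all genes) and 4 lower (10.9%). In MS against ML, 4 were higher in MS (13.7%) and 3 lower (13.8%), and in LP against ML, 2 were higher in LP (6.42%) and 3 lower (4.67%). Stroma differed in 7 ligands from MS (30.4% of all genes), in 7 from LP (36.3%) and in 8 from ML (38.3%). It was higher in 3 ligands than MS (14.3% of all genes) and lower in 4 (16.1%), higher in 4 than LP (16.5%) and lower in 3 (19.8%), and higher in 4 than ML (16.6%) and lower in 4 (21.7%). The median size of the log2 difference over the 10 ligands was 1.38 in MS against LP, 1.90 in MS against ML and 0.68 in LP against ML, where it was 0.24, 0.29 and 0.18 over all genes. These contrasts share arrays, so their counts are not independent of each other. Of the 41 called pairs of gene and contrast, 31 had groups that did not overlap and 36 went the same way in every pool. These pairs were selected as called, which favours both outcomes, and no such share was counted over all genes. The 31 and 36 therefore describe the calls and are not further evidence for them.

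**Figure D2:**
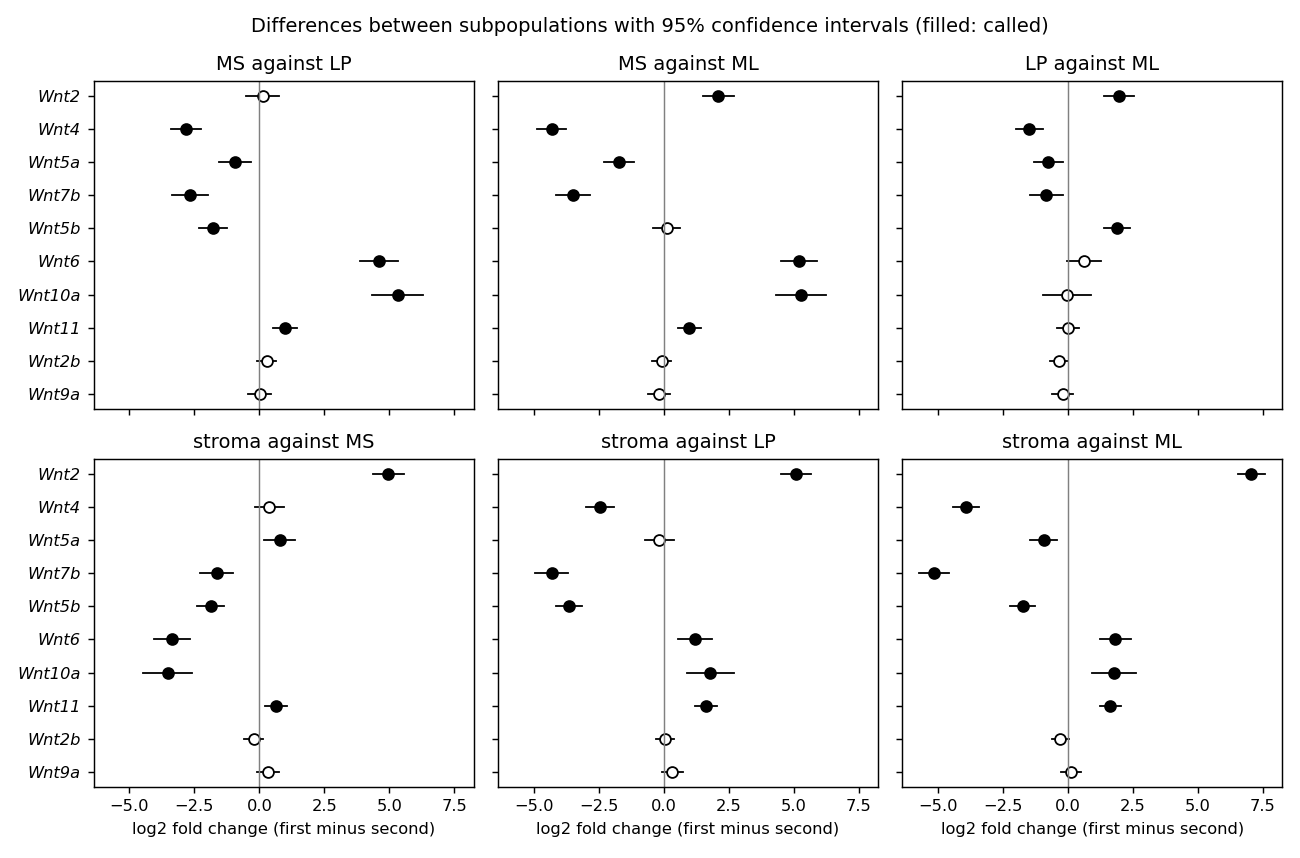
Fitted log2 fold change (horizontal axis, first subpopulation minus second) of the 10 ligands in the 6 contrasts, with 95% confidence intervals from limma. Filled points were called (adjusted p under 0.05 and fold change over 1.5) and open points were not. The largest value is that of Wnt2 in stroma against ML, 7.06, and Wnt2b and Wnt9a differ by 0.35 or less in every panel.

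The sequence before the start site is shown for the ligand that led in stroma (Wnt2), the one that led in mature luminal cells (Wnt4), 1 of the MS ligands (Wnt6, since Wnt10a, which exceeded the luminal subsets by more, had no window) and the one higher in both MS and stroma than in the luminal subsets (Wnt11). RefSeq promoter windows on build GRCm38.p6 were matched by symbol for 7 of the 10 genes, and Wnt5a, Wnt7b and Wnt10a are not shown. Each line holds the 250 bases before the start site, 5′ to 3′ on the strand of the gene. Capitals mark matches, on either strand, to a GC box, whose letters are GGGCGG and which SP factors bind. They also mark the TATA box, searched as TATAAA. The last motif marked is the core of the site of TCF/LEF factors, searched as CTTTGA. The windows lie at chr6:18030446-18030695 on the minus strand for Wnt2, and on the plus strand at chr4:137277385-137277634 for Wnt4, chr1:74771642-74771891 for Wnt6 and chr7:98834862-98835111 for Wnt11.
Wnt2: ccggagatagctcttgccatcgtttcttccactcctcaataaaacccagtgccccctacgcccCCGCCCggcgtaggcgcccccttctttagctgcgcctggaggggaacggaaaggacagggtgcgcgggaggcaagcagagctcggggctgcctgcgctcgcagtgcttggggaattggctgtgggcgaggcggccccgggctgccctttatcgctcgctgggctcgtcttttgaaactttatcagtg
Wnt4: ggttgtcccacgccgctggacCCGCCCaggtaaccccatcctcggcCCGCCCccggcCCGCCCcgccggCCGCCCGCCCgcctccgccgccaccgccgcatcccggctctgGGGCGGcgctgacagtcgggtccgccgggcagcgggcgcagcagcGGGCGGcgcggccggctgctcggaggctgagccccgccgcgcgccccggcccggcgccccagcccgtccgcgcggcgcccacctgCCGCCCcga
Wnt6: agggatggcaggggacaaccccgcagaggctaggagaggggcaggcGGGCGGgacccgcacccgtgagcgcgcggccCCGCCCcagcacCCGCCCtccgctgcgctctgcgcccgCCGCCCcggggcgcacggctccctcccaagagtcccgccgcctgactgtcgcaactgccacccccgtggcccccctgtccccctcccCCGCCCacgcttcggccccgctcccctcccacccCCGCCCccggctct
Wnt11: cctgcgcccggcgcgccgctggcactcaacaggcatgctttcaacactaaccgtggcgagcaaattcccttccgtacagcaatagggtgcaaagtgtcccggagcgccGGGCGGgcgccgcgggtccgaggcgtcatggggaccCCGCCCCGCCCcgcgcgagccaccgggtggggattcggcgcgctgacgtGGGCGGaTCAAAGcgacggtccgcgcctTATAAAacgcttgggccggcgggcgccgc
The Wnt4 window holds 8 GC boxes and the Wnt6 window 6, the Wnt11 window 4 and the Wnt2 window 1, where 32.7% of 32851 mouse windows of the same length hold at least 1. Some of these matches overlap each other. G and C made up 85.2% of the Wnt4 window, 79.6% of that of Wnt6, 70.8% of that of Wnt11 and 63.6% of that of Wnt2, with a median of 52.4% over all windows. Of these 4 windows, the one of Wnt11 held a TATA box (12.4% of all windows) and a TCF/LEF core (13.8%). A second annotated start of Wnt11 has neither in its window. The palindromic site of steroid receptors, searched on both strands, was in none of the 10 windows of the 7 genes (0.387% of all windows). These matches are descriptions of the letters and were not tested against the levels.

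Wnt2 was the ligand with the largest stromal excess. It signals through beta-catenin and is best known for its role in the growth of the lung. Its probe (ILMN_1258734) read 12.37, 12.42 and 12.42 on the stromal arrays of pools 1, 2 and 3. The MS arrays of pools 1 to 5 read 6.71, 6.95, 8.82, 8.57 and 6.82, and the LP arrays 7.11, 7.18, 7.93, 6.56 and 6.97. The ML arrays read 5.18, 5.64, 5.43, 5.32 and 4.79, around background, with 4 of 5 arrays above it. Stroma therefore lay above every epithelial array and ML below every MS and LP array, while MS and LP overlapped. Stroma exceeded ML 133-fold (log2 7.06, SE 0.25, adjusted p = 2.16e-13), LP 33.9-fold (adjusted p = 3.61e-11) and MS 31.2-fold (adjusted p = 9.64e-11). Within the epithelium, Wnt2 was 4.27-fold higher in MS than in ML (adjusted p = 8.78e-06) and 3.93-fold higher in LP than in ML (adjusted p = 1.11e-05), in 5 of 5 pools each. MS and LP were not called different (log2 0.12, 95% interval -0.50 to 0.75).

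The highest Wnt2 levels in the epithelium were those of MS replicates 3 and 4 and LP replicate 3. The MS arrays are those with the highest fibroblast and endothelial marker means, given above, and LP replicate 3 had the highest fibroblast mean of its group, 9.97 against 8.75 to 9.57. Over the 18 arrays the correlation of Wnt2 with the fibroblast marker mean was 0.98, a description in which the 3 stromal arrays weigh heavily. The fibroblast markers ran alongside Wnt2 within the epithelium: their mean level was 9.72 to 11.41 on the MS arrays, 8.75 to 9.97 on the LP arrays and 7.21 to 8.66 on the ML arrays, and 9 of the 10 were called lower in ML than in both MS and LP. All 10 were above background on every MS and LP array, and 8 to 10 of them on the ML arrays. Their summed intensity ranged from 23637 to 49285 in MS, 13433 to 24156 in LP, 14075 to 22824 in ML and 170799 to 176937 in stroma. Dcn, the exception among the 10, had a mean of 13.93 in ML, 13.63 in LP and 13.93 in MS. It weighed heavily in the sums of all 3 epithelial subsets, so these sums say little about the other fibroblast markers. Without the MS and LP arrays of pools 3 and 4, the log2 difference of MS against ML was 1.49 instead of 2.10 and that of LP against ML 1.79 instead of 1.97, and both were still called. The part of these markers in the epithelial Wnt2 level was not tested further. The genes whose pattern over the arrays was most like that of Wnt2 were Lrrn4cl (r = 0.99), Tmem100 (0.98) and Tnxb (0.98).

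Wnt6 and Wnt10a were the ligands of the MS subset. Both are made by surface ectoderm and its appendages, and Wnt10a is known for its role in teeth and hair. The brightest Wnt6 probe (ILMN_2901765) read 9.97, 10.70, 9.67, 10.25 and 10.79 on the MS arrays of pools 1 to 5. It read 5.19, 5.46, 6.40, 7.65 and 5.15 on the LP arrays and 4.94, 4.99, 4.74, 5.32 and 5.91 on the ML arrays. The stromal arrays read 6.71, 7.37 and 5.95. The probe was above background on 4 of 5 LP and 2 of 5 ML arrays, so the folds against ML are measured against a level near background. LP replicates 1, 2 and 5 were also near background, so this holds in part for the folds against LP. All 5 MS arrays lay above every other array, LP and ML overlapped, and LP replicates 3 and 4 were the highest luminal arrays. Wnt6 was 24.1-fold higher in MS than in LP (log2 4.59, SE 0.34, adjusted p = 4.19e-09), 36.8-fold higher than in ML (log2 5.20, SE 0.33, adjusted p = 3.61e-10) and 10.4-fold higher than in stroma (adjusted p = 1.41e-07). LP and ML were not called different (log2 0.61, 95% interval -0.05 to 1.27).

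The Wnt10a probe (ILMN_2460094) read 11.84, 11.72, 9.55, 9.84 and 12.06 on the MS arrays. It read 5.81, 5.68, 6.46, 6.18 and 4.93 on the LP arrays and 5.67, 6.19, 5.40, 5.21 and 7.02 on the ML arrays. The stromal arrays read 7.82, 8.21 and 6.12. The probe was above background on 4 of 5 LP and 5 of 5 ML arrays. The LP and ML means, 5.81 and 5.90, were not far above it, so the folds against both are measured against low levels. Again all MS arrays were above all others, but MS replicates 3 and 4 were the lowest of their group, and the luminal subsets overlapped each other and stroma. Wnt10a was 39.7-fold higher in MS than in LP (log2 5.31, SE 0.47, adjusted p = 4.62e-08), 38.8-fold higher than in ML (log2 5.28, SE 0.45, adjusted p = 2.42e-08) and 11.5-fold higher than in stroma (adjusted p = 5.01e-06). Without the MS and LP arrays of pools 3 and 4, the log2 differences rose to 6.15 against LP and 5.79 against ML.

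In stroma both genes were at a middle level. Wnt6 was 2.33-fold higher in stroma than in LP (adjusted p = 0.00524) and 3.55-fold higher than in ML (adjusted p = 6.15e-05), and Wnt10a was 3.46-fold and 3.38-fold higher (adjusted p = 0.00323 and 0.00211). Stromal replicates 1 and 2, the higher arrays for both genes, had basal marker means of 9.15 and 9.31, and replicate 3 had 7.69. The summed intensity of the 10 basal markers was 11047 to 32814 in stroma, 5075 to 38825 in LP and 10333 to 34026 in ML, against 104990 to 139549 in MS. Their part in the stromal levels was not tested. Without stromal replicate 1 or without stromal replicate 2, Wnt6 was no longer called against LP (log2 0.99 and 0.75 instead of 1.22), nor was Wnt10a against LP (1.35 and 1.20 instead of 1.79) or ML (1.31 and 1.15 instead of 1.76).

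Wnt6 and Wnt10a are neighbouring protein-coding genes in the RefSeq annotation. Their levels had a correlation of 0.95 over the 18 arrays and of 0.61 after the mean of each subpopulation was removed. The arrays share pools, and most of the first value comes from the difference between MS and the rest. The second value was not particular to neighbours. Wnt2 and Wnt4, which do not lie side by side, had 0.62 after the same step, and Wnt10a and Wnt11 had 0.57. All other pairs of the 10 ligands had lower values. Over the 18 arrays, the correlation of Wnt6 with the neighbour on its other side, Prkag3, was 0.35. Other Wnt genes that lie side by side had lower values, 0.38 for Wnt10b and Wnt1 and 0.01 for Wnt9b and Wnt3, of which Wnt1 and Wnt3 were near background. The patterns most like Wnt6 were those of Tenm2 (r = 0.98), Trpv4 (0.97) and Pgf (0.97), and most like Wnt10a those of Zcchc18, Cntn2 and Oit3 (0.96 each).

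**Figure D3:**
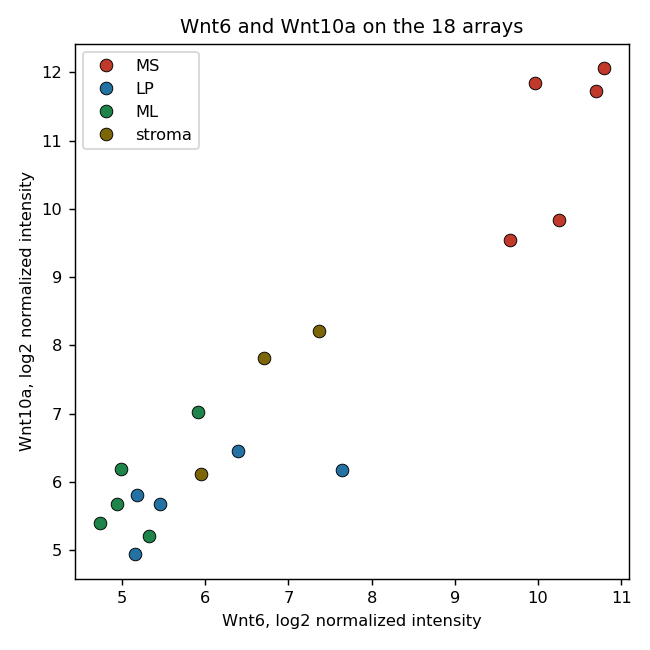
Wnt10a level (vertical axis) against Wnt6 level (horizontal axis) on the 18 arrays, both as log2 normalized intensity, coloured by subpopulation. The 5 MS arrays form a group at 9.67 or more for Wnt6 and 9.55 or more for Wnt10a, and stroma overlaps the luminal arrays.

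Wnt11 was shared by MS and stroma at a low level. It guides cell movements in fish and frog embryos and branching in the mouse kidney. Its probe (ILMN_1226485) read 6.87, 6.63 and 6.15 in stroma and 6.41, 5.79, 5.52, 5.22 and 6.74 in MS. In LP it read 5.27, 4.81, 4.95, 4.81 and 4.79 and in ML 4.99, 4.77, 5.39, 4.83 and 4.75, with 1 of 5 arrays above background in each. MS and stroma overlapped, MS overlapped the luminal arrays at its low end, and MS replicates 3 and 4 were the lowest of their group. Wnt11 was 1.98-fold higher in MS than in LP (adjusted p = 0.00173), 1.99-fold higher than in ML (adjusted p = 0.000986), and 3.08-fold and 3.10-fold higher in stroma than in LP and ML (adjusted p = 2.95e-06 and 1.12e-06), all 4 folds against values mostly below background. Stroma exceeded MS 1.56-fold (log2 0.64, adjusted p = 0.0257). This call was lost with the pools paired as a fixed block (log2 0.56), with the batch or the BeadChip as a term (0.59 and 0.49), with equal array weights (0.59), without stromal replicate 1 or 2 (0.46 and 0.47), without MS replicate 2, 3 or 4 (0.64, 0.48 and 0.55) and without the MS and LP arrays of pools 3 and 4 (0.37). The patterns most like it were those of Socs1, Slc1a5 and Nox4 (r = 0.94, 0.94 and 0.93).

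Wnt4 was highest in mature luminal cells. The brightest Wnt4 probe (ILMN_2889641) read 11.07, 11.87, 11.41, 10.93 and 11.19 on the ML arrays of pools 1 to 5 and 9.48, 10.56, 9.86, 9.83 and 9.81 on the LP arrays. It read 6.44, 7.24, 7.80, 7.69 and 6.43 in MS and 7.25, 7.98 and 6.77 in stroma. ML lay above LP and LP above MS with no overlap and in 5 of 5 pools, and MS and stroma overlapped. Wnt4 was 19.8-fold higher in ML than in MS (log2 4.31 higher, SE 0.26, adjusted p = 2.52e-10), 2.79-fold higher in ML than in LP (adjusted p = 0.000131) and 7.10-fold higher in LP than in MS (adjusted p = 1.64e-07). Stroma was 15.1-fold below ML (adjusted p = 1.94e-10) and was not called different from MS (log2 0.39, 95% interval -0.17 to 0.94). MS replicates 3 and 4, the highest MS arrays, also had the highest luminal progenitor marker means of that group, 11.66 and 11.36 against 8.95 to 9.42; the part of these cells was not tested. The patterns most like Wnt4 were those of 8430426J06Rik (r = 0.98), Gdpd1 (0.98) and Mlph (0.97).

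Wnt7b was also highest in ML, then LP, then MS, but here stroma lay below MS, which was not so for Wnt4. It signals through beta-catenin in the lung and kidney. The brightest probe (ILMN_2789692) read 11.40, 10.57, 10.66, 9.97 and 11.47 on the ML arrays and 10.40, 9.43, 9.92, 11.09 and 10.24 on the LP arrays. It read 7.19, 6.58, 8.37, 7.41 and 7.87 in MS and 6.27, 5.51 and 5.05 in stroma, where replicate 3 was below background. The luminal subsets overlapped each other and lay above all MS arrays, and MS lay above stroma. Wnt7b was 11.2-fold higher in ML than in MS (adjusted p = 3.66e-08), 6.34-fold higher in LP than in MS (adjusted p = 2.55e-06) and 35.1-fold higher in ML than in stroma (log2 5.13 higher, SE 0.27, adjusted p = 3.88e-11). The step from LP to ML was small (1.77-fold, adjusted p = 0.0413) and was seen in 4 of 5 pools. Its call was lost with the batch as a term (log2 -0.79 for LP against ML), in batch 1 alone (-0.92) and without any block (-0.80). In batch 2 alone the log2 difference of LP against ML was -0.05 instead of -0.82, but its pools 4 and 5 went opposite ways. Pool 5 read 11.47 in ML and 10.24 in LP. Pool 4 read 9.97 in ML and 11.09 in LP, on the array with the lowest quality weight of all, 0.17. On the second Wnt7b probe ML exceeded LP in 5 of 5 pools, though the difference was not called. The genes nearest to Wnt7b were Evpl, Slc12a2 (r = 0.99 each) and Casz1 (0.98).

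Wnt5a was present in every subset, with the smallest range of the luminal ligands. It is the main Wnt of the pathways that do not use beta-catenin. The brightest probe (ILMN_2511913) read 11.51, 10.39, 11.71, 10.47 and 12.30 in ML, 10.41, 10.16, 10.91, 9.94 and 10.64 in LP, and 9.44, 9.62, 9.78, 9.82 and 8.99 in MS. Stroma read 10.07, 10.41 and 10.51. MS lay below every luminal and stromal array, and the other 3 subsets overlapped. Wnt5a was 3.26-fold higher in ML than in MS (log2 1.71 higher, SE 0.28, adjusted p = 7.94e-05), 1.93-fold higher in LP than in MS (adjusted p = 0.0186) and 1.90-fold higher in ML than in stroma (adjusted p = 0.00735). Each of the 5 pools had more in ML than in LP, by 1.69-fold in the fit (adjusted p = 0.0386), and stroma exceeded MS 1.72-fold (adjusted p = 0.0411). Calls with a p this close to the threshold were lost when single arrays were left out: for LP against ML without ML replicate 5 the log2 difference was -0.58 instead of -0.76, and for stroma against MS without MS replicate 5 it was 0.65 instead of 0.78. The call of stroma over MS was also lost with the pools paired as a fixed block (log2 0.83), with the batch as a term (0.83), without any block (0.77) and with equal array weights (0.78), and that of ML over LP with the batch as a term (-0.78 for LP against ML) and without any block (-0.75). The call of LP over MS was lost in batch 1 alone (log2 -0.86 for MS against LP) and without MS replicate 1 or 5 (-0.91 and -0.80). It was also lost without the MS and LP arrays of pools 3 and 4 (-0.97). The call of ML over stroma was lost without stromal replicate 1 (-0.78 for stroma against ML). The patterns most like Wnt5a were those of Tmed3 (r = 0.91), Pxylp1 (0.91) and Tmem181c-ps (0.88), a weaker likeness than for the other ligands that were called.

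Wnt5b was the luminal progenitor ligand. It is a close relative of Wnt5a, known from cartilage growth. Its probe (ILMN_1224193) read 11.35, 11.71, 10.74, 9.86 and 10.70 on the LP arrays. It read 9.33, 9.02, 8.88, 10.65 and 9.16 in ML and 9.54, 9.38, 9.35, 9.38 and 9.03 in MS. The stromal arrays read 7.63, 7.66 and 6.93, below all epithelial arrays. LP lay above every MS array and overlapped ML through ML replicate 4, which read above LP replicate 4 of the same pool. Wnt5b was 3.74-fold higher in LP than in ML (log2 1.90, SE 0.24, adjusted p = 3.53e-06), 3.43-fold higher than in MS (adjusted p = 2.46e-05) and 12.5-fold higher than in stroma (adjusted p = 5.76e-10). ML and MS were not called different (log2 0.13 for MS against ML, 95% interval -0.39 to 0.65). In batch 1 alone the log2 difference of LP against ML was 2.22, and in batch 2 alone, with pools 4 and 5, it was 0.38 and was not called. ML replicate 4 is also the ML array with the highest luminal progenitor marker mean, given above, and the part of those cells in its level was not tested. The genes nearest to Wnt5b were Fads2 (r = 0.94), Shisa2 (0.93) and Tob1 (0.92).

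**Figure D4:**
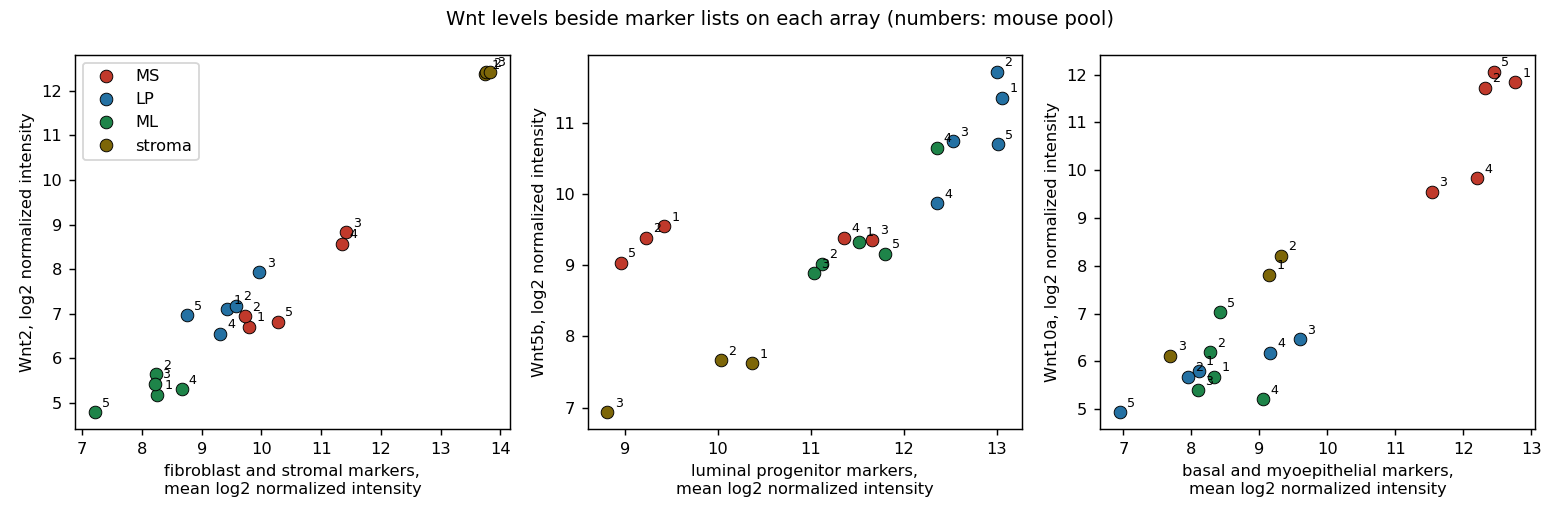
Level of Wnt2, Wnt5b and Wnt10a (vertical axes) against the mean level of a marker list on the same array (horizontal axes: fibroblast, luminal progenitor and basal markers), all as log2 normalized intensity, coloured by subpopulation and numbered by mouse pool. MS arrays 3 and 4 lie at the highest fibroblast means of their group and at its highest Wnt2 and lowest Wnt10a levels. ML array 4 lies among the LP arrays for Wnt5b and level with the lowest LP array for the luminal progenitor markers.

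Wnt2b and Wnt9a stayed near background. The brightest Wnt2b probe (ILMN_2814768) ranged from 4.80 to 5.84 over the 18 arrays, with 3 of 5 MS, 2 of 5 LP, 4 of 5 ML and 1 of 3 stromal arrays above background. Wnt9a (ILMN_2472856) ranged from 4.65 to 6.05, with 2 of 5 MS, 2 of 5 LP, 3 of 5 ML and 2 of 3 stromal arrays above it. No difference between subsets was called for either gene, and a signal this low limits what could be detected.

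Of the 10 ligands, 5 have more than 1 probe, which adds 7 probes. The second probe of Wnt4 gave all 5 calls of the first, as did the second probes of Wnt5a (ILMN_2472917) and Wnt6 (ILMN_2423835). On the second Wnt5a probe, unlike the brightest, MS overlapped LP and ML, and LP exceeded MS in 4 of 5 pools. The direction of every call was the same on the other probes of Wnt4, Wnt5a, Wnt6 and Wnt7b, but weaker probes lost calls. The second Wnt7b probe (ILMN_2456957) made 4 of 6 calls, without LP against ML and stroma against MS. Its stromal arrays were at or below background, so that ML exceeded stroma at least 11.3-fold, a bound taken against the background level. LP replicate 4 read 5.49 on this probe, against 7.66 to 8.38 on the other LP arrays, whereas on the brightest probe it was the highest LP array. The third probes of Wnt6 (ILMN_2491759) and Wnt5a (ILMN_1245294) each made 3 of 5 calls; Wnt6 was at least 2.23-fold higher in MS than in ML and Wnt5a at least 1.77-fold higher in ML than in MS.

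Batch and pool were set beside these calls. With the batch as a term, and within batch 1 alone, 37 of the 41 calls were kept in each case and all 41 kept their direction. In batch 2 alone, with 2 arrays a group, the 19 epithelial calls kept their direction and 2 passed the threshold, Wnt4 and Wnt6 in MS against ML.

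The other Wnt genes add 3 ligands with calls in stroma. Of the 9 on the array, 7 were tested. Wnt10b, which holds back fat cell formation, read 8.51, 8.75 and 8.58 in stroma, against means of 5.36 ± 0.42 in MS, 5.35 ± 0.28 in LP and 5.32 ± 0.18 in ML (SD, n = 5). It was 10.1-fold higher in stroma than in MS (adjusted p = 8.35e-12) and 10.3-fold higher than in ML (adjusted p = 1.66e-12). These values are from its brightest probe (ILMN_2422848). A second Wnt10b probe (ILMN_2432242) was below background on every array, with a mean of 4.90 in stroma, and was not tested. Wnt9b was called higher in stroma than in each epithelial subset as well, with arrays at 4.83, 6.91 and 7.35, of which the first was below background. Wnt16 read 5.74, 5.53 and 6.38 in stroma on its brightest probe (ILMN_1247108) and was called against LP (at least 1.59-fold, adjusted p = 0.00127) and ML (adjusted p = 0.0011), whereas its 1.49-fold difference from MS (adjusted p = 0.0263) was under the fold threshold. Its other probes were called higher in stroma than in all 3 epithelial subsets, where neither exceeded background on any array. The probe ILMN_2917629 read 6.39, 5.21 and 6.41 in stroma, at least 1.79-fold higher than in MS (adjusted p = 0.000817), and ILMN_2468007 read 6.05, 4.95 (below background) and 6.46, at least 1.58-fold higher (adjusted p = 0.00246). The other 4 tested Wnt genes had no calls, and none of the 7 set an epithelial subset apart from both others.

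The receptors and regulators of the pathway were taken from lists chosen with earlier results of these data known, and are described by counts. Of 12 Frizzled receptors and coreceptors, 4 were higher in MS than in both luminal subsets (9.66% of all genes) and none lower, among them Fzd7 (12.04 ± 0.46 in MS, 9.63 ± 0.52 in LP and 9.48 ± 0.29 in ML) and Fzd3 (log2 2.35 over the luminal mean), and the median log2 difference was 0.50 against -0.04 over all genes. In stroma 4 were higher than in all epithelial subsets (9.93% of all genes), led by Fzd2 and Fzd1 (log2 3.16 and 3.00 over the epithelial mean). Another 2, Fzd6 and Lrp5, were lower there (9.69% of all genes). Of 10 tested receptors and polarity genes outside the beta-catenin branch, 4 were higher in MS (9.66% of all genes), with Prickle2 and Prickle1 in front (log2 2.19 and 1.90). In stroma 1 was higher (9.93%), the Wnt5a receptor Ror2 (log2 2.40). Another 3 were lower there (9.69%), among them the polarity cadherin Celsr2 (log2 -4.67). Among 8 genes on a list for Wnt acylation, secretion and release, 1 was higher in MS (9.66%), Tinagl1 (log2 2.28). The place of Tinagl1 on this list is uncertain, so its level is not read as a sign of Wnt release. In stroma 1 was higher (9.93%), Wls (log2 0.84). A count of 1 of 8 is near these shares. Porcn was lower in LP than in MS and ML (1 of 8, against 0.778% of all genes).

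Of 10 tested antagonists that cells secrete, 4 were higher in MS than in both luminal subsets (9.66% of all genes) and none lower (8.17%), led by Wif1, which binds Wnt proteins (log2 4.59 over the luminal mean), and Dkk3 (4.50), with Sostdc1 and Sfrp1 besides. In stroma 3 were higher (9.93% of all genes), all Frizzled-related decoys, led by Sfrp2 (4.28) and Sfrp1 (3.08). Of 9 feedback and target genes, 4 were higher in MS (9.66% of all genes) and none lower (8.17%), led by Nkd2 and Nkd1 (4.42 and 4.32), inhibitors that the pathway itself switches on, with Axin2 and Myc. In stroma 3 were higher (9.93% of all genes), Apcdd1 (3.73), Axin2 and Myc, and 1 was lower (9.69%), Ccnd1 (-3.40). Of 7 tested R-spondins, Lgr receptors and ligases, 2 were higher in MS (9.66% of all genes), Lgr5 and Lgr6 (4.50 and 2.21). Another 1 was lower in MS (8.17%), Rspo1, which enhances Wnt signals (-1.85). Lgr5 varied widely within MS (9.24 ± 1.94). In stroma 1 of the 7 was higher, Rspo3 (2.14), and 1 lower, Lgr6 (-2.84), against 9.93% and 9.69% of all genes. The fibroblast markers differed between MS and the luminal subsets alongside these genes, as given above, and their part in the MS counts was not tested.

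**Figure D5:**
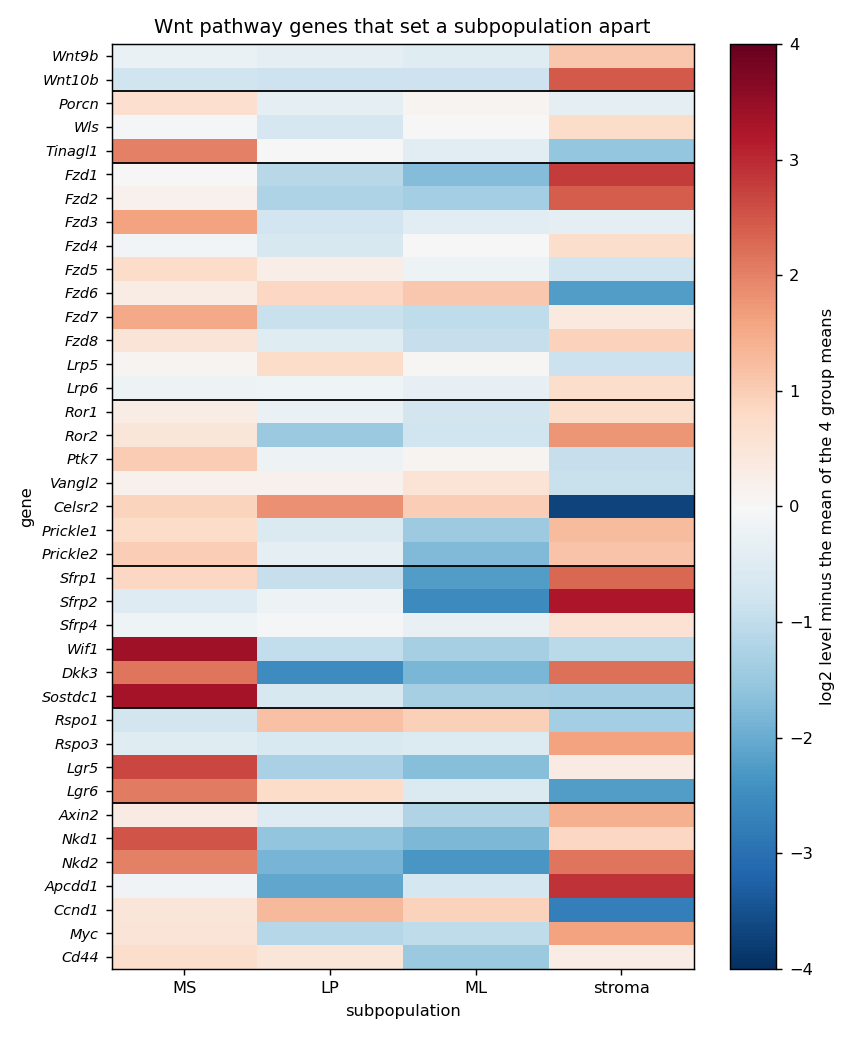
Mean log2 level of 39 pathway genes in each subpopulation, minus the mean of the 4 group means (colour, log2 units). Shown are the genes, ordered by list with black lines between lists, that were called in 1 direction against both other epithelial subsets or, for stroma, against all 3. Wif1, Sostdc1, Lgr5 and Nkd1 are highest in MS, and Wnt10b, Fzd1, Fzd2, Sfrp2 and Apcdd1 are highest in stroma.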

How the data were processed

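Each of 18 sorted samples had its RNA measured on 1 Illumina mouse whole-genome array. The authors deposited log2 values made with BeadStudio and the neqc function of limma (a normexp correction of the background, then quantile normalization, both with control probes), and these values were used as they are (column medians 5.27 to 5.29). Another table holds intensities before normalization in 36 columns that no label ties to a sample; it was not used here, so the detection filter of the study was replaced. A probe was kept if it exceeded, on at least 1 array, the median of 1506 olfactory and vomeronasal receptor probes plus the upper 1% normal point times their MAD; this lenient filter kept 660 of those 1506. A gene is its kept probe with the highest mean. Of the probes, 34885 had 1 gene symbol, 18 several and 10378 none.

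Groups came from the sample labels. A model with a mean for each subset was fitted in R 4.3.3 (limma 3.58.1, statmod 1.5.0). Arrays were weighted by quality, and pools entered as a random block with a correlation of 0.26. Calls used Benjamini-Hochberg adjustment over all kept probes and 6 contrasts, with thresholds of 0.05 and a fold change of 1.5. The pools are those of the labels, and residuals of arrays of 1 pool had a median correlation of 0.41 (24 pairs), against 0.03 for other pools of the batch (42 pairs) and -0.20 for the other batch (54 pairs). The model was tested on simulated data. An array has no read depth, so precision comes from the number of arrays. Where no array of a group exceeded background, a fold is a bound against that level.

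All 10 ligands are named with every probe. Array values are given for ligands called in at least 3 contrasts, with the 3 genes of highest correlation over 18 arrays. From each pathway list the 2 largest differences past the thresholds in MS and in stroma are named, and further genes were named after their values were seen. Members and lists were chosen with earlier results of these data known. Alternatives were other pool, batch and BeadChip terms, single batches, equal weights, other filters, epithelial arrays alone, other adjustments, the mean over probes and leaving out arrays.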

Additional observations from a re-analysis of the deposited data

Results flagged for a closer look

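Of 51 groups of 5 arrays (17 probes in MS, LP and ML), 3 held an array set apart from the rest by Dixon's test, which chance does in about 1 of 20 groups. Wnt5b in ML replicate 4 was 10.65, with the other ML arrays from 8.88 to 9.33. The second Wnt7b probe in LP replicate 4 was 5.49, with the others from 7.66 to 8.38; this array had the lowest quality weight of all, 0.17. The second Wnt2b probe in LP replicate 2 was 5.12, with the others from 4.77 to 4.85, all of them below background.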

How the results depend on the processing

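No call changed direction under any alternative. Leaving out 1 array at a time kept 701 of 738 compared calls, and the other settings kept 512 of 571. The ligands called in LP against ML fell from 5 to 3 without the replicate block of mouse pools, with the batch as a fixed term, in batch 1 alone, without the filter, with adjustment within each contrast and with treat, a test against a fold change of 1.5; Wnt5a and Wnt7b were lost each time. In batch 2 alone the counts were 0 in LP against ML, 0 in MS against LP and 2 in MS against ML; it holds 2 arrays a group. The count in LP against ML ranged from 3 to 5 when single arrays were left out, with 3 without ML replicate 1 or 5 or LP replicate 1, 2 or 5. The counts ranged from 6 to 7 in MS against LP and stayed at 7 in MS against ML. For stroma they ranged from 5 to 7 against MS, 5 to 7 against LP and 6 to 8 against ML. Pairing by pool as a fixed replicate block kept 39 of 41 calls, losing Wnt5a and Wnt11 in stroma against MS, and no replicate block kept 38. Leaving out the MS and LP arrays of pools 3 and 4, chosen after seeing the data, kept 38. The number of arrays, and signal near background for Wnt2b, Wnt9a and Wnt11, limit what could be detected.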
